A study of Homo sapiens with 12 samples.

Results

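The 7 replacement histone genes H2AFZ, H2AFV, H2AFX, H2AFY, H3F3A, H3F3B and H1FX were followed in polysome profiles of sorafenib-treated and vehicle-treated HepG2 cells. They were taken by symbol from a table of 57353 rows, and all 7 members were found there and passed the filter on low counts, among 14955 genes tested. Sorafenib is a multikinase inhibitor used against liver cancer, and HepG2 is an established human liver tumour cell line that was grown here in serum-supplemented medium. The 4 groups, of 3 libraries each, were the polysome pool of cells given 10 µM sorafenib for 12 h, the polysome pool of cells given the vehicle DMSO, the light pool of sorafenib-treated cells and the light pool of vehicle-treated cells. All cells received cycloheximide, which holds ribosomes on mRNA, shortly before lysis. The light pool held low-molecular complexes, free ribosomal subunits and single ribosomes of a sucrose gradient, and the polysome pool held mRNAs carrying several ribosomes. One drug dose, one time and one cell line were sampled, and normally the cells of 2 dishes were combined for a gradient. The values were counts of reads per gene in the RNA of each pool.

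Most histone mRNA of dividing cells comes from clustered replication-dependent genes, is made in S phase and ends in a stem-loop in place of a poly(A) tail. Replacement histones are made throughout the cell cycle, largely from polyadenylated mRNA, and are placed into chromatin outside replication, where they mark active promoters, damaged DNA, silenced regions or differentiated cells. H2AFX is a mixed case, since it is known to give both a stem-loop mRNA and a longer polyadenylated one, which counts per gene cannot tell apart. The tail was not measured, so the grouping of these genes as polyadenylated rests on what is known of them.

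The promoters of the 3 genes whose mRNA fell on polysomes (H2AFZ, H2AFV and H2AFX) and of H3F3B, the gene that rose most in the light pool, are shown because these genes moved together or most, and their windows share a short sequence. As the windows were picked partly for that sequence, its frequency among all RefSeq windows, given below, is not a test. H1FX, which also rose in the light pool, is not shown, and its window lacks that sequence. Each window runs from 250 bases before to 50 bases after the RefSeq transcript start and is printed 5′ to 3′ on the strand of the gene, in assembly GRCh38.p14. Capitals mark the letters CCAAT, or ATTGG where the match is on the other strand. The windows lie at chr4:99950226-99950525 (H2AFZ, RefSeq symbol H2AZ1), chr7:44848038-44848337 (H2AFV, H2AZ2), chr11:119095416-119095715 (H2AFX, H2AX) and chr17:75779730-75780029 (H3F3B, H3-3B), all on the minus strand.
H2AFZ: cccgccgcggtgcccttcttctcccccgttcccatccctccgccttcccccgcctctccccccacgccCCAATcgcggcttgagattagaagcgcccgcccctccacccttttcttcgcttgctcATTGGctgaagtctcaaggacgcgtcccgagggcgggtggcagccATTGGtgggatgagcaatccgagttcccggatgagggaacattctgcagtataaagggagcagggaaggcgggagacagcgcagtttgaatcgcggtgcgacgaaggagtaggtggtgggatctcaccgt
H2AFV: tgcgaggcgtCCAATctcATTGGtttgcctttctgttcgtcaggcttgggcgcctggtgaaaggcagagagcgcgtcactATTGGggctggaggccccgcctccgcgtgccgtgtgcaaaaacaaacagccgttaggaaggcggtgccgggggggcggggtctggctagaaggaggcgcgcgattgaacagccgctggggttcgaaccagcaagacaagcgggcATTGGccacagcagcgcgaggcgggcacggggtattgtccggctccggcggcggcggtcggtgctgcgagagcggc
H2AFX: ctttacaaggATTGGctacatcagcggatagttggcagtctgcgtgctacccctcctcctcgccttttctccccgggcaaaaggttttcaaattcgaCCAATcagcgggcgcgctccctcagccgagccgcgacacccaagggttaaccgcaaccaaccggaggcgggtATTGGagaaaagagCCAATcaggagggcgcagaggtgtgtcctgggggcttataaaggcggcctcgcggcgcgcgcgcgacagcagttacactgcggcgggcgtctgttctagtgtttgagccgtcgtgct
H3F3B: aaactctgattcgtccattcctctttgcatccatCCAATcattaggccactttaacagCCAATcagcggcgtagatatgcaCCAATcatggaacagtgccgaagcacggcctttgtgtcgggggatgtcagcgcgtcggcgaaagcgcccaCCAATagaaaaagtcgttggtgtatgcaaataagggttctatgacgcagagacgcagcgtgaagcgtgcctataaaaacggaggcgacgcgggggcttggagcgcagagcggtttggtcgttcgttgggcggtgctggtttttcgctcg
The H2AFZ window held 3 matches to CCAAT, and those of H2AFV, H2AFX and H3F3B held 4 each. Among 35116 RefSeq windows of this length, 34.6% held at least 1 match, 3.26% held at least 3 and 0.991% held at least 4. The letters TATAAA, searched on both strands and overlapping no CCAAT match, were found once in the windows of H2AFZ, H2AFX, H3F3B and H1FX, against 11.5% of all windows with at least 1. The H1FX window held no CCAAT, the 4 windows of H3F3A held 0 or 1 each, and the 2 windows of H2AFY held 0 and 2. Polysome pools do not measure promoter activity, and a match is a description of letters.

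Library totals ran between 511065 and 13336689 counts, the smallest being sorafenib light library 2, in which the members together had 752 counts. Libraries of a group correlated at 0.980 to 0.990 among sorafenib polysome libraries, 0.962 to 0.967 among vehicle polysome libraries, 0.797 to 0.934 among sorafenib light libraries and 0.951 to 0.976 among vehicle light libraries (Pearson r of log2 CPM across genes). All 8 hepatocyte markers checked were detected in every group, and their sum was 25646 to 31136 CPM in the sorafenib polysome libraries, 7355 to 14140 CPM in the vehicle polysome libraries, 24903 to 27130 CPM in the sorafenib light libraries and 4373 to 8625 CPM in the vehicle light libraries. The summed fetal liver and hepatoma markers were 10026 to 12181 CPM in the sorafenib polysome libraries, in which H19 was at 0, against 2047 to 3717 CPM in the vehicle polysome libraries, and 5326 to 7000 CPM in the sorafenib light libraries, against 6631 to 10947 CPM in the vehicle light libraries. Summed fibroblast, endothelial and blood markers were 31.3, 21.5 and 19.6 CPM in sorafenib light library 2, against at most 2.71, 1.47 and 5.87 CPM in any library of the other groups, and the fibroblast sum was 12.1 CPM in sorafenib light library 1. The part of these markers in the results was not tested. Without sorafenib light libraries 1 and 2, the light-pool log2 changes of H3F3B and H1FX were 2.32 and 2.23, both called, and H2AFZ (0.91) and H3F3A (0.90) were called higher too; the lone sorafenib light library left is then assumed to vary like the other groups. Values below are TMM-scaled CPM, a gene's share of the scaled counts of its library, and so not an amount per cell. No unfractionated RNA was sampled, and less RNA of a gene per cell cannot be told apart from a shift of its mRNA between pools.

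On polysomes, sorafenib lowered the mRNA of the H2A.Z pair H2AFZ and H2AFV and of the DNA damage histone H2AFX, and none of the 7 genes rose past the test. The 3 that fell did so by 1.11, 0.85 and 1.67 on the log2 scale, and in each of them all 3 sorafenib libraries lay below all 3 vehicle libraries. Overlap of libraries was looked at for single named genes only, here and below, and not over all genes. In edgeR's quasi-likelihood test with Benjamini-Hochberg adjustment over 14955 genes, 28.8% of genes fell and 20.9% rose, against 3 and 0 of the 7 members. The members' median log2 change was -0.58, and that of all genes was -0.26. H3F3B and H1FX lay higher in all 3 sorafenib libraries without passing (adjusted p = 0.203 and 0.0597), and 1 of the 7, H1FX, was higher at an unadjusted p under 0.05. With TMM within each fraction, under which the median of all genes was -0.03, both were called higher (log2 changes of 0.63 and 0.84), as they were by DESeq2's own test (0.46 and 0.67). With DESeq2's size factors in edgeR, H1FX passed (0.67, adjusted p = 0.0369) and H3F3B did not (0.46, adjusted p = 0.136).

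In the light pool, the H3.3 gene H3F3B and the linker histone gene H1FX rose with sorafenib, by log2 changes of 2.13 and 1.66. No member fell past the test in edgeR or DESeq2, and 1, H2AFX, was lower at an unadjusted p under 0.05. The share of all genes called in edgeR was 11.7% higher and 17.7% lower, against 2 and 0 of the 7 members. Their median log2 change was 0.38, against -0.12 over all genes tested. The members' summed share of all counts was 0.157% ± 0.00906 in the sorafenib light libraries and 0.0495% ± 0.00657 in the vehicle light libraries (SD, n = 3 each). On polysomes it was 0.320% ± 0.00885 with sorafenib and 0.324% ± 0.0546 with vehicle (SD, n = 3 each), and these overlapped. The summed shares are of library totals and not TMM-scaled. With library totals the median log2 change of all genes in the light pool was itself 0.31.

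**Figure D1:**
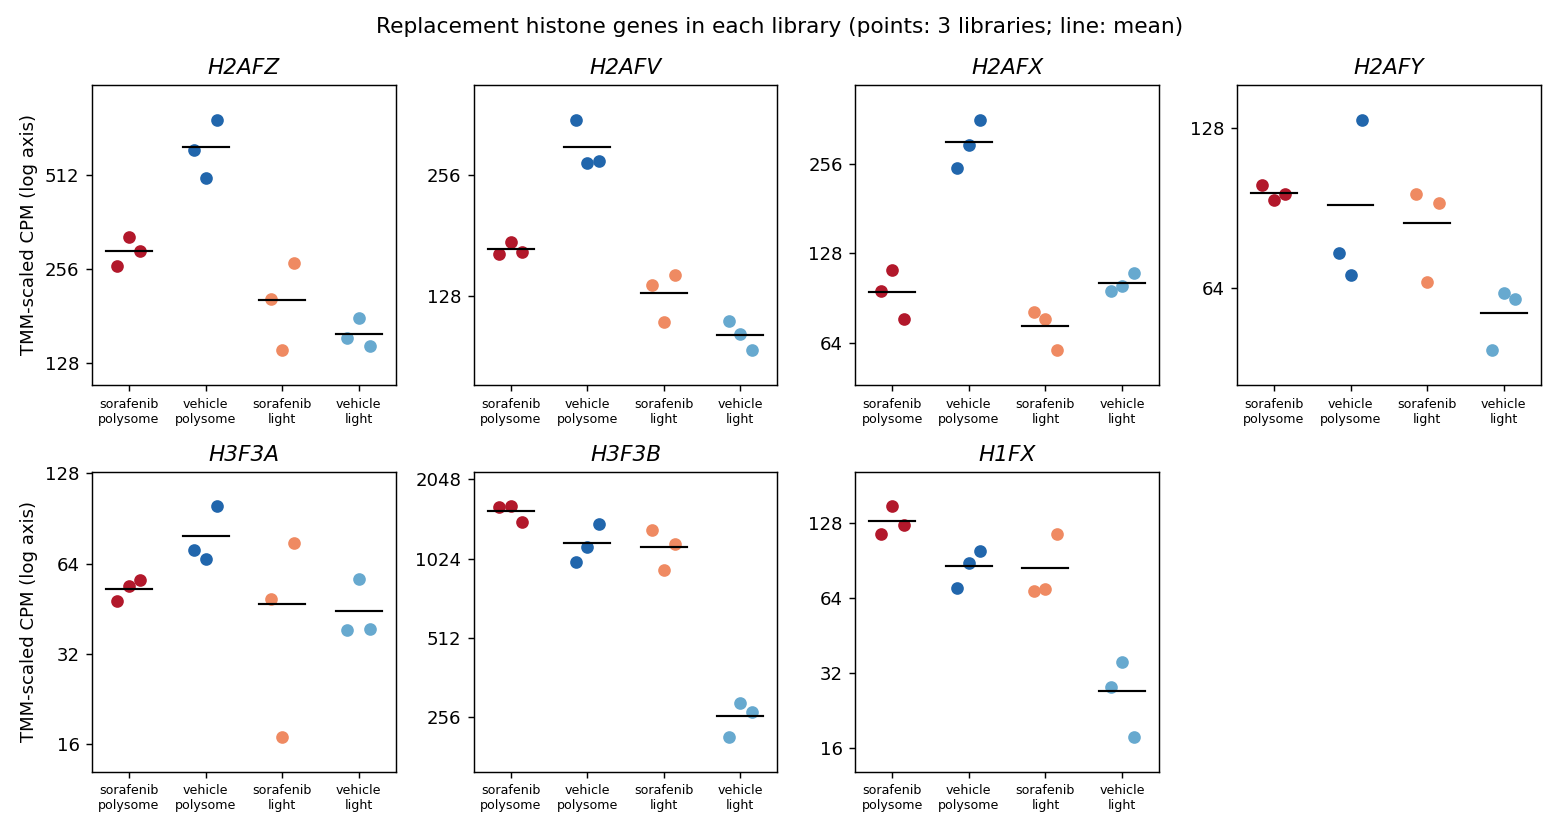
TMM-scaled CPM (log axis) of the 7 genes in each library of the sorafenib polysome, vehicle polysome, sorafenib light and vehicle light groups; points are libraries and lines are means of 3. H2AFX sits between 76.8 and 112 CPM in the sorafenib polysome libraries, below all vehicle polysome libraries, and H3F3B sits at 928 CPM or more in every sorafenib light library, above all vehicle light libraries.

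H2AFZ encodes H2A.Z.1, the H2A variant placed at promoters and enhancers by the SRCAP and p400 complexes. It had 262, 324 and 293 CPM in the sorafenib polysome libraries, against 619, 501 and 774 CPM in the vehicle polysome libraries. Its light libraries had 205, 140 and 268 CPM with sorafenib and 153, 178 and 145 CPM with vehicle. On polysomes the groups did not overlap, while in the light pool the second sorafenib library was below all vehicle libraries and the other two above them. The log2 fold change was -1.11 ± 0.26 (SE, 95% interval -1.65 to -0.57, edgeR adjusted p = 0.00174) on polysomes and 0.38 ± 0.26 (adjusted p = 0.28) in the light pool. The polysome call was lost in 3 of 30 alternatives: with no filter on low counts, and in refits without the vehicle culture 1 (log2 change -0.84, adjusted p = 0.0528) or 3 (-0.69, adjusted p = 0.0934). The light change was called in 4 of 30, among them without sorafenib light library 2 (0.70, adjusted p = 0.0291).

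H2AFV encodes H2A.Z.2, which differs from H2A.Z.1 in few residues. It had 163, 175 and 164 CPM in the sorafenib polysome libraries and 351, 274 and 278 CPM in the vehicle polysome libraries. Its light libraries had 137, 110 and 144 CPM with sorafenib, against 111, 103 and 94.0 CPM with vehicle. It repeated the order seen for its paralogue: sorafenib polysome libraries were low without overlap, and sorafenib light libraries ran higher with 1 overlap. The log2 fold change was -0.85 ± 0.21 (95% interval -1.29 to -0.41, edgeR adjusted p = 0.00277) on polysomes and 0.36 ± 0.22 (adjusted p = 0.22) in the light pool. The polysome call was lost in 6 of 30 alternatives: with no filter, without vehicle culture 1 (-0.45, edgeR adjusted p = 0.205) or 3 (-0.66, 0.0629), and without vehicle light library 1, 2 or 3 (-0.58 each, adjusted p = 0.0742, 0.0814 and 0.0656). The light change passed in 3 of 30, among them without sorafenib light library 2 (0.58, adjusted p = 0.04).

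H2AFX encodes H2AX, the variant whose tail is phosphorylated around DNA breaks. It had 95.5, 112 and 76.8 CPM in the sorafenib polysome libraries, against 249, 298 and 362 CPM in the vehicle polysome libraries. The light libraries had 81.0, 76.7 and 60.3 CPM with sorafenib and 95.6, 99.3 and 110 CPM with vehicle. It was the one member that lay lower in all sorafenib libraries of both pools. The polysome log2 fold change of -1.67 ± 0.23 (95% interval -2.15 to -1.20, edgeR adjusted p = 1.54e-05) is 3.19-fold lower, and this call held under all 30 alternatives, which gave between -1.83 and -1.27. The light change of -0.50 ± 0.24 did not pass (adjusted p = 0.121).

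H2AFY encodes macroH2A1, which carries a large extra domain and is enriched in silenced chromatin; its splice forms are counted together here. It had 100.2, 93.5 and 96.1 CPM in the sorafenib polysome libraries, against 74.4, 67.5 and 133 CPM in the vehicle polysome libraries. Light-pool values were 96.3, 65.5 and 92.5 CPM with sorafenib and 48.7, 62.4 and 61.0 CPM with vehicle. The polysome groups overlapped because the third vehicle library stood above the rest, whereas all sorafenib light libraries were above the vehicle ones. The log2 fold change was 0.07 ± 0.25 on polysomes (edgeR adjusted p = 0.819) and 0.59 ± 0.26 in the light pool (adjusted p = 0.0915). It passed on polysomes without the vehicle culture 3 (0.69, adjusted p = 0.0495). The light change passed in 7 of 30 alternatives: with library totals (1.04, edgeR adjusted p = 0.00443), TMM within each fraction (0.67), DESeq2's own test (0.65), a minimum of 10 counts in 6 libraries (0.74) and only the compared groups (0.72), and without sorafenib light library 2 or sorafenib culture 2 (0.84 each).

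H3F3B and H3F3A both encode H3.3, the H3 variant placed by HIRA at active genes and by DAXX and ATRX at heterochromatin and telomeres. H3F3B had 1606, 1616 and 1410 CPM in the sorafenib polysome libraries, against 998, 1134 and 1390 CPM in the vehicle polysome libraries. Light-pool values were 1310, 928 and 1159 CPM with sorafenib, against 216, 291 and 268 CPM with vehicle. Every sorafenib library lay above every vehicle library of the same pool, by little on polysomes and by far in the light pool. The light log2 fold change was 2.13 ± 0.27 (95% interval 1.58 to 2.69, edgeR adjusted p = 3.05e-05), which is 4.38-fold higher. It was called under all 30 alternatives, which gave between 1.98 and 2.60. The polysome change was 0.40 ± 0.25 (95% interval -0.14 to 0.93, adjusted p = 0.203), and it passed in 6 of 30 alternatives, among them without sorafenib light library 2 (0.64, adjusted p = 0.0145) or 3 (0.67, adjusted p = 0.0487).

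H3F3A had 48.1, 53.7 and 56.3 CPM in the sorafenib polysome libraries, against 71.0, 66.1 and 99.4 CPM in the vehicle polysome libraries. The light pool gave 48.7, 16.8 and 75.0 CPM with sorafenib and 38.3, 56.8 and 38.6 CPM with vehicle. The sorafenib polysome libraries were all lower, while the sorafenib light libraries spanned the vehicle ones, and the 16.8 CPM of library 2 stood for 9 counts. Neither change passed: the log2 fold change was -0.58 ± 0.30 on polysomes (95% interval -1.21 to 0.04, edgeR adjusted p = 0.112) and 0.20 ± 0.32 in the light pool (adjusted p = 0.664). The light change has no settled direction, since over the alternatives it ran between -0.37 without sorafenib culture 3 and 0.90 without sorafenib light libraries 1 and 2, where it was called (adjusted p = 0.0432). Processed copies of H3F3A make its count uncertain: 6 rows named as its pseudogenes held 12.1% as many counts as the gene in the sorafenib polysome group, 10.8% in the vehicle polysome group, 11.1% in the sorafenib light group and 10.4% in the vehicle light group. The copies of H2AFV held at most 1.06% and those of H2AFZ at most 0.446% of their parent's counts, and those of H3F3B at most 0.0198%. With copies added to their parents, no call changed for any member.

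H1FX encodes H1.10, a divergent linker histone. It had 115, 149 and 126 CPM in the sorafenib polysome libraries, against 70.1, 88.2 and 98.0 CPM in the vehicle polysome libraries. Its light libraries had 68.1, 69.2 and 115 CPM with sorafenib, against 28.0, 35.3 and 17.6 CPM with vehicle. Sorafenib libraries were higher without overlap in both pools. The light log2 fold change was 1.66 ± 0.28 (95% interval 1.08 to 2.25, edgeR adjusted p = 0.000318), 3.17-fold, and was called in all 30 alternatives. The polysome change was 0.60 ± 0.26 (95% interval 0.06 to 1.15, adjusted p = 0.0597) and passed in 16 of the 30. Of these 16, 7 left out sorafenib light library 1, 2 or 3, vehicle light library 1, 2 or 3, or vehicle culture 3, and gave log2 changes between 0.85 and 0.96.

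**Figure D2:**
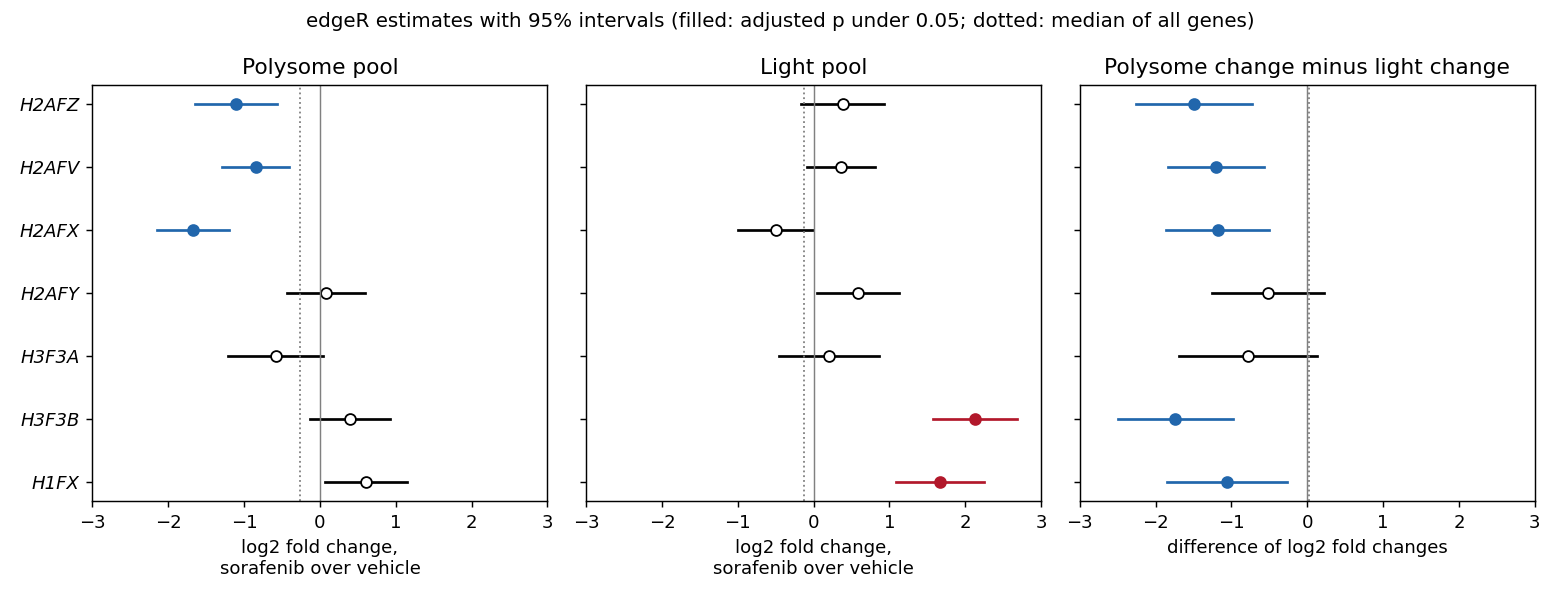
Log2 fold changes of sorafenib over vehicle on polysomes and in the light pool, and the difference between them, with 95% intervals, for each gene; filled points have an edgeR adjusted p under 0.05 and the dotted line is the median of all genes. H2AFX is lowest on polysomes at -1.67, H3F3B is highest in the light pool at 2.13, and all 7 differences are negative.

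In vehicle-treated cells, all 7 mRNAs were more abundant in the polysome pool than in the light pool, and for none of them did polysome and light libraries overlap. How many of all genes separate in this way was not counted, so the absence of overlap has no share to stand beside. H3F3B was highest at a log2 fold change of 2.18 ± 0.27 (edgeR adjusted p = 5.81e-06), or 4.54-fold, followed by H2AFZ at 1.99 ± 0.27, H1FX at 1.65 ± 0.27, H2AFX at 1.58 ± 0.23 and H2AFV at 1.55 ± 0.21. H3F3A at 0.82 ± 0.30 and H2AFY at 0.68 ± 0.25 passed by little (adjusted p = 0.0409 and 0.0399). The 95% intervals of neighbours in this order overlapped. Among all genes, 18.3% were called higher on polysomes and 17.8% lower, and the members' median of 1.58 stood beside -0.06 for all genes. The H3F3A call was lost without vehicle culture 1 (0.78), 2 (1.15) or 3 (0.55), vehicle light library 1 (0.74) or 3 (0.73), vehicle polysome library 2 (0.94) or 3 (0.63), sorafenib culture 1 (0.82), sorafenib light library 1 (0.83) or any sorafenib polysome library (0.84 each). For H2AFY it was lost without any vehicle culture or vehicle light library, vehicle polysome library 3, sorafenib culture 1 or 3, sorafenib light library 1 or any sorafenib polysome library, at log2 changes between 0.31 and 0.92. Both calls were also lost with DESeq2 size factors in edgeR (H3F3A 0.77, H2AFY 0.62) and when thinned to the smallest total (0.67 and 0.34). The H2AFY call was lost with no filter (0.77) and with only the compared groups (0.67) too. In all, the H3F3A call was lost in 14 of 30 alternatives and the H2AFY call in 17.

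In sorafenib-treated cells the same contrast was small in the main setting. There no member was called higher or lower on polysomes by edgeR, nor by DESeq2's own test. Of all genes, 13.4% were called higher and 12.4% lower by edgeR, and 1 member, H1FX, was higher at an unadjusted p under 0.05. This depended on scaling and filter. In edgeR with library totals, 6 members were called higher, beside 5587 of 14955 genes. With no filter on low counts it was 5, beside 4719 of 45832 genes. The log2 fold changes ran between 0.04 for H3F3A and 0.59 for H1FX (edgeR adjusted p = 0.949 and 0.112), and the median was 0.40, against -0.0037 for all genes. Without sorafenib light library 3, H2AFZ at 1.08, H2AFV at 0.76 and H1FX at 1.25 were called higher. H1FX also passed without sorafenib culture 3 (1.02), vehicle culture 1 or 3 (0.82 each) or any vehicle light library (0.84 each).

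The direct test asked whether the sorafenib change differed between the pools, and for H2AFZ, H2AFV, H2AFX, H3F3B and H1FX it did. In each of the 5 the change on polysomes was more negative, or less positive, than in the light pool, against 10.7% of all genes with a lower and 12.8% with a higher difference. The difference of log2 changes, polysome minus light, was -1.74 ± 0.36 for H3F3B (edgeR adjusted p = 0.00202), -1.49 ± 0.37 for H2AFZ (0.00625), -1.20 ± 0.30 for H2AFV (0.00696), -1.18 ± 0.33 for H2AFX (0.0131) and -1.06 ± 0.38 for H1FX (0.0477). H3F3A at -0.78 ± 0.44 and H2AFY at -0.52 ± 0.36 did not pass (adjusted p = 0.206 and 0.314). The members' median was -1.18, against 0.02 for all genes. The contrasts share libraries, so the fraction and drug comparisons are not independent of this one.

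The calls within each pool were not alike for these genes. For H2AFZ, H2AFV and H2AFX the fall on polysomes was called and the light change was not. For H3F3B and H1FX the light rise was called and the polysome change was not. A change that was not called can still have contributed, and no test compared the genes with each other. The calls of the direct test leaned on single libraries. The count of 5 became 1 without vehicle light library 1 or 3, 2 without vehicle light library 2 or sorafenib light library 1 or 3, and 3 without the third sorafenib or the third vehicle polysome library; each such refit also changed the scaling and the genes tested. The H3F3B difference was lost only when no filter was applied (-1.18, adjusted p = 0.163), among 30 alternatives, and the differences of H2AFZ, H2AFV, H2AFX and H1FX were lost in 8, 10, 12 and 21.

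If the pools that share a sample number are taken to come from the same gradient, the polysome minus light difference can be read in each culture. This pairing was read from the numbers in the sample titles. For H3F3B, log2 CPM differed by 0.29, 0.80 and 0.28 in the sorafenib cultures, against 2.21, 1.96 and 2.37 in the vehicle cultures. For H2AFZ the differences were 0.36, 1.21 and 0.13 with sorafenib and 2.01, 1.49 and 2.42 with vehicle. For H2AFX they were 0.24, 0.55 and 0.35 with sorafenib and 1.38, 1.58 and 1.72 with vehicle. All 3 genes were closer to even between the pools in every sorafenib culture than in any vehicle culture. The same separation held for H2AFV, at 0.26, 0.66 and 0.19 against 1.66, 1.40 and 1.56, and for H1FX, at 0.75, 1.10 and 0.13 against 1.32, 1.31 and 2.46. The separated genes are those called in the direct test above, which used the same libraries, so this restates that result. How many of all genes separate in this way was not counted. H2AFY gave 0.06, 0.51 and 0.06 with sorafenib and 0.61, 0.11 and 1.12 with vehicle, and H3F3A gave -0.02, 1.66 and -0.41 with sorafenib and 0.88, 0.22 and 1.36 with vehicle, both overlapping. Sorafenib culture 2, whose light library is the smallest, had the largest difference of the sorafenib cultures for every member.

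**Figure D3:**
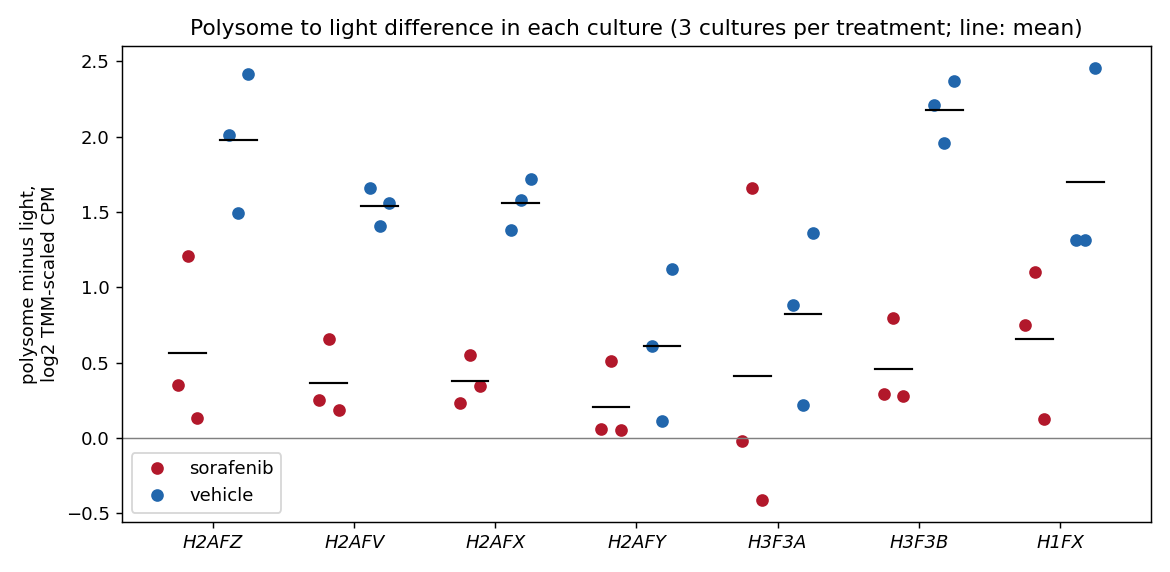
Polysome minus light difference in log2 TMM-scaled CPM in each of 3 sorafenib and 3 vehicle cultures, for each gene; lines are means. For H2AFZ, H2AFV, H2AFX, H3F3B and H1FX all sorafenib cultures sit below all vehicle cultures, and for H3F3B the sorafenib cultures sit between 0.28 and 0.80. Genes other than the members were not looked at in this way.

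H3F3A and H3F3B give the same protein, and their balance within a library does not depend on scaling. H3F3B had 33.4, 30.1 and 25.0 times the counts of H3F3A in the sorafenib polysome libraries, against 14.0, 17.2 and 14.0 times in the vehicle polysome libraries. The light libraries had 26.9, 55.1 and 15.5 times with sorafenib, against 5.62, 5.13 and 6.96 times with vehicle. In both pools the sorafenib libraries lay farther toward H3F3B without overlap. The mean log2 ratio of H3F3A to H3F3B was -4.87 ± 0.21 with sorafenib and -3.91 ± 0.17 with vehicle on polysomes (SD, n = 3 each), and -4.80 ± 0.88 with sorafenib and -2.55 ± 0.22 with vehicle in the light pool. These differences of -0.97 and -2.25 had a two-sided exact permutation p of 0.1 each, the smallest that 3 against 3 libraries allow. The 55.1 times of sorafenib light library 2 rests on 9 counts of H3F3A. Without that library the light difference was -1.80, and with a pseudocount of 5 it was -2.06. These are count ratios and also carry transcript length and the copies named above.

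The balance of the H2A.Z pair did not separate the treatments. The mean log2 ratio of H2AFZ to H2AFV counts was 0.80 ± 0.11 with sorafenib and 1.06 ± 0.37 with vehicle on polysomes, and 0.61 ± 0.27 with sorafenib and 0.62 ± 0.16 with vehicle in the light pool (SD, n = 3 each). The groups overlapped in both pools (differences of -0.25 and -0.02, two-sided exact permutation p = 0.5 and 0.9). Across the 12 libraries H2AFZ and H2AFV had the highest correlation of any pair of members, with r = 0.965 of log2 CPM, followed by H3F3B and H1FX at 0.937 and H2AFY and H3F3B at 0.820. H3F3A and H3F3B correlated at 0.303. The libraries share fractions, treatment and depth, so these values only describe likeness.

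**Figure D4:**
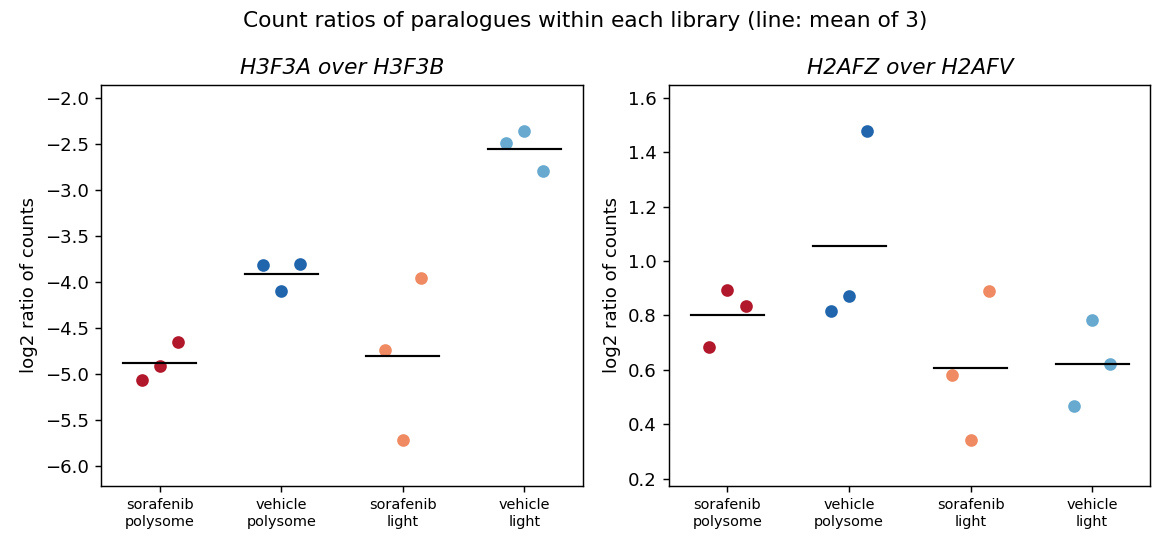
Log2 ratio of counts of H3F3A to H3F3B and of H2AFZ to H2AFV within each library, in the sorafenib polysome, vehicle polysome, sorafenib light and vehicle light groups; lines are means of 3. The H3F3A to H3F3B ratio is lower in every sorafenib library than in any vehicle library of the same pool, and the H2AFZ to H2AFV ratios overlap.

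The share of the members' counts that lay on H3F3B was higher with sorafenib. It was 64.8% of all counts on the 7 genes in the sorafenib polysome group (63.4% to 67.2% by library), against 43.5% in the vehicle polysome group (41.0% to 46.7%). For the light pool it was 62.7% with sorafenib (60.6% to 67.3%), against 34.4% with vehicle (31.2% to 36.6%). The ranges did not overlap in either pool.

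Among 12 further variants that were looked up, 4 were tested: CENPA, the centromere H3, H2AFJ, an H2A variant seen in senescent cells, H2AFY2, which encodes macroH2A2, and H3F3C, a copy of H3F3B in the genome with few differences. H2AFJ averaged 33.2 ± 2.34 CPM in the sorafenib polysome group, against 48.3 ± 6.47 in the vehicle polysome group, and 57.1 ± 6.75 CPM in the sorafenib light group, against 14.4 ± 1.21 in the vehicle light group (SD, n = 3 each). It therefore fell on polysomes and rose in the light pool (log2 changes of -0.54 ± 0.20 and 2.00 ± 0.22, edgeR adjusted p = 0.0306 and 1.1e-05). CENPA fell on polysomes (log2 change -1.29 ± 0.23, adjusted p = 0.000166), and its light change of -0.61 did not pass (adjusted p = 0.0905). H3F3C rose on polysomes (0.91 ± 0.31, adjusted p = 0.0187) and in the light pool (2.80 ± 0.44, adjusted p = 0.000206), but reads of H3F3B may be counted on it. H2AFY2 changed by -0.03 and 0.38 and passed in neither (adjusted p = 0.932 and 0.355). The list's medians were -0.29 on polysomes and 1.19 in the light pool, against -0.26 and -0.12 for all genes.

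Replication-dependent histone genes, whose mRNAs normally lack a poly(A) tail, gave more and larger changes in the light pool. Of 75 such genes, taken by symbol without those ending in P or PS, 44 were tested. Single entries were not checked further for pseudogenes or for genes that also give polyadenylated mRNA. In the light pool 38 rose and 1 (HIST1H3E) fell, with a median log2 change of 3.49, against 11.7% and 17.7% of all genes. The filter can pass a gene on a single group, so genes high only in the sorafenib light group could enter the 44. The count of 38 can be partly set by this. The same filter kept 29 in the polysome libraries alone and 26 in the vehicle libraries alone. With a minimum of 10 counts in 6 libraries, 27 were tested and 26 rose. Thinned to the smallest total, 8 were tested and 8 rose. On polysomes 11 of the 44 fell and none rose, a smaller share than the 28.8% of all genes that fell, with a median of -1.38. That count became 3 without vehicle polysome library 2 (median -0.47) and 21 without vehicle polysome library 1 (median -1.80), and lay between 4 and 7 without sorafenib polysome library 1 or 2, any sorafenib light library, or vehicle light library 2 or 3. With TMM within each fraction 4 fell and 1 rose. HIST1H3H, an H3 gene, stood at -1.32 ± 0.33 on polysomes and 2.75 ± 0.36 in the light pool (edgeR adjusted p = 0.00261 and 4.66e-05). On polysomes relative to the light pool, 40 of the 44 were lower with sorafenib, against 1 lower and 7 higher with vehicle, whereas none of the 7 replacement genes was lower on polysomes with sorafenib. Genes that passed the filter through the sorafenib light group would be lower on polysomes there by selection, which limits this contrast. With a minimum of 10 counts in 6 libraries, 25 of 27 were lower with sorafenib, and 6 were higher with vehicle. Thinned, 8 of 8 were lower with sorafenib, and 0 were higher with vehicle. The 40 compare with 12.4% of all genes, and became 23 without sorafenib culture 1 and 15 without sorafenib light libraries 1 and 2. The 7 are a share near the 18.3% of all genes, and became 0 without vehicle polysome library 2, 2 or 3 without vehicle light library 2 or 3, 14 without vehicle light library 1, 17 without vehicle polysome library 1 and 29 with library totals. The replication-dependent genes took 0.0831% ± 0.0527 of counts in the sorafenib light group, against 0.00657% ± 0.00238 in the vehicle light group (SD, n = 3 each), with 0.142% in sorafenib light library 2. Without sorafenib light libraries 1 and 2, 46 were tested, 22 rose in the light pool, none fell, and the median was 2.90. Whether the RNA was selected by its poly(A) tail was not given in the sources used here.

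**Figure D5:**
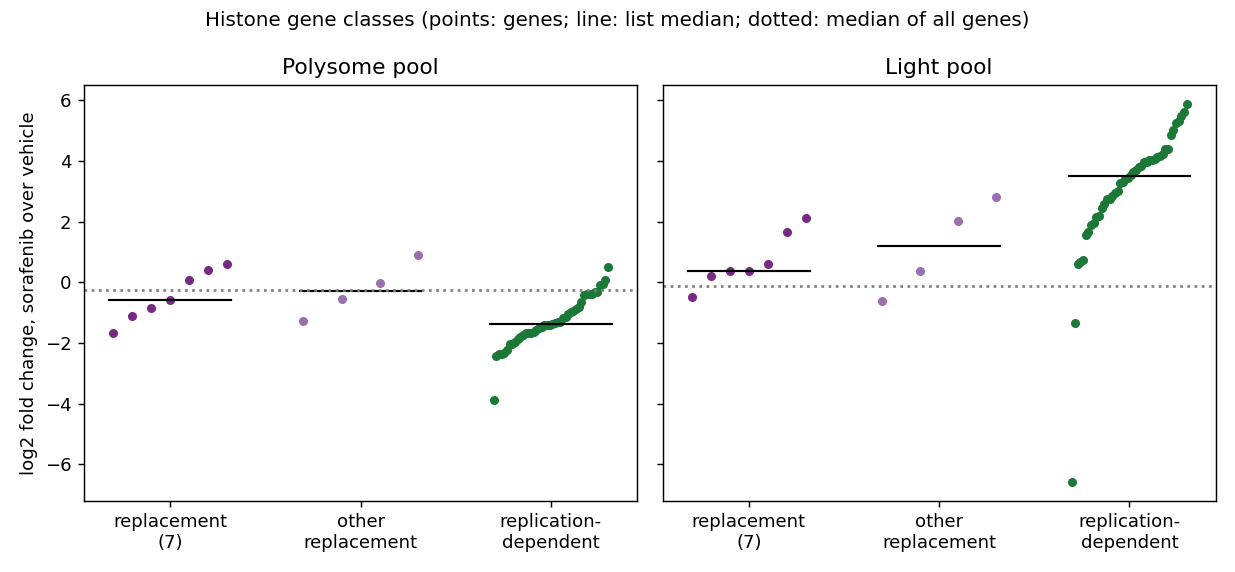
Log2 fold changes of sorafenib over vehicle on polysomes and in the light pool for the 7 replacement genes, the other replacement variants and the replication-dependent histone genes; points are genes, lines are list medians and the dotted line is the median of all genes. The light-pool medians are 0.38, 1.19 and 3.49. Replication-dependent genes could pass the filter through the sorafenib light group alone.

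The factors that place or remove these variants moved in mixed directions. The counts below stand beside 20.9% of all genes called higher and 28.8% called lower on polysomes, and 11.7% higher and 17.7% lower in the light pool, with medians of -0.26 and -0.12. Of 12 chaperones of H3.3 and other H3 forms, 2 rose and 3 fell on polysomes (median -0.06), and 0 rose and 5 fell in the light pool (median -0.37), so the polysome counts were near those shares. HIRA, the H3.3 chaperone of active genes, fell on polysomes (-1.15 ± 0.21, edgeR adjusted p = 0.000235), as did DAXX (-1.03 ± 0.25, adjusted p = 0.00231), while NASP, a carrier of free H3 and H4, rose (1.70 ± 0.30, adjusted p = 0.000146). Of 21 subunits that exchange H2A.Z, 9 rose and 1 fell on polysomes (median 0.41), and 3 rose and 4 fell in the light pool (median 0.15). The acetyltransferase KAT5 (1.66 ± 0.21, adjusted p = 5.93e-06) and DMAP1 (1.36 ± 0.23, adjusted p = 0.000103) led the rises, and ZNHIT1, a subunit of SRCAP, was the one that fell (-1.22 ± 0.24, adjusted p = 0.00043). Light-pool VPS72, the H2A.Z-binding subunit, rose (1.58 ± 0.27, adjusted p = 0.000356) and SRCAP fell (-1.54 ± 0.40, adjusted p = 0.00762).

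Of 11 genes of H2AX signalling, 6 rose and 1 fell on polysomes (median 0.83), against 20.9% and 28.8% of all genes, and H2AFX itself fell there. The kinase PRKDC rose by 1.60 ± 0.30 (edgeR adjusted p = 0.000293) and MDC1, which binds phosphorylated H2AX, by 1.09 ± 0.23 (adjusted p = 0.000756) on the log2 scale, while the phosphatase subunit PPP4C fell (-1.20 ± 0.21, adjusted p = 0.000144). Light-pool counts were 1 rise and 3 falls (median -0.13). Of 12 other histone chaperones, most of them known for H2A and H2B, 5 rose and none fell on polysomes (median 0.47), against the same 20.9% and 28.8%, and in the light pool 3 rose and 1 fell (median 0.54). On polysomes MCM2, a helicase subunit that binds H3 and H4, stood at 2.55 ± 0.23 (edgeR adjusted p = 4.8e-07) and SUPT16H of FACT at 2.11 ± 0.22 (adjusted p = 1.36e-06). Of 14 factors of histone mRNA 3′ end formation, 3 rose and 1 fell on polysomes (median -0.10) and 2 rose and 3 fell in the light pool (median -0.19), and apart from the 1 that fell on polysomes, against 28.8% of all genes, these counts were near the shares of all genes. SLBP, which binds the stem-loop, changed by -0.13 on polysomes and 0.44 in the light pool and passed in neither (adjusted p = 0.669 and 0.198); it was chosen for naming after its values were seen.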

How the data were processed

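Per the labels' protocols, RNA of pooled light or polysome fractions of sucrose gradients was sequenced. The authors deposited whole-number counts per gene, not normalized. Per the submitters' processing notes the build was GRCh38.p12; what aligned and counted the reads, on which annotation and strand, was not given in the sources used here. One column's sample index differs from the pattern of the others (sorafenib polysome library 3), and it was assigned by its title.

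Counts were tested with edgeR 4.0.16 (R 4.3.3, limma 3.58.1): filterByExpr on the 4 groups, TMM over all 12 libraries, quasi-likelihood test, Benjamini-Hochberg over 14955 genes, adjusted p under 0.05. SE was computed as |log2 fold change| divided by √F. Rows left untested (42398) took up to 4.54% of a library's counts. The common biological coefficient of variation was 0.245. Depth was 511065 to 13336689 counts per library. DESeq2 1.42.0, other scalings, filters, thinning, blocks and left-out libraries were alternatives. The edgeR fit was checked on simulated counts for the sorafenib against vehicle contrast on polysomes, and the other steps were not. Ratios used a pseudocount of 0.5 and exact permutation over libraries. The labels speak of triplicate experiments and say no more on cultures, so p-values may measure technical spread. Replicate pairs differed beyond counting noise (chi-square over degrees of freedom, 8.82 to 46.1).

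Equal numbers within a treatment were taken to name both pools of the same culture. Deviations of such pairs correlated at 0.05, 0.041 and 0.035 (sorafenib) and 0.14, -0.071 and 0.33 (vehicle). The members and lists were chosen with earlier results of these data known. All 7 members were named, a further gene that the rule names is not reported here, and of other lists at most the 2 called genes with the smallest p per direction and pool. Promoter windows came from RefSeq (GRCh38.p14), in which all 7 symbols matched as older names.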

Additional observations from a re-analysis of the deposited data

Results flagged for a closer look

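In 5 genes the sorafenib change differed between the polysome and the light pool by the interaction term of the edgeR fit. The difference of log2 changes, polysome minus light, was -1.74 for H3F3B, -1.49 for H2AFZ, -1.20 for H2AFV, -1.18 for H2AFX and -1.06 for H1FX. Their adjusted p-values from edgeR were 0.00202, 0.00625, 0.00696, 0.0131 and 0.0477. Groups of 3 libraries were not searched for single libraries that stand apart.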

How the results depend on the processing

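Under 30 alternatives, the calls of H2AFX on polysomes and of H3F3B and H1FX in the light pool were kept. No member was called higher on polysomes, but 1 was with DESeq2 size factors, another TMM reference, library totals, no filter or a minimum of 10 counts in 6 libraries, and 2 with TMM within each fraction, the DESeq2 test, only the compared groups, or without sorafenib light libraries 1 and 2; leaving out single libraries or cultures gave 0 to 2. The 3 called lower became 1 with no filter, which tested 45832 genes, and 1 to 3 with a library or culture left out. In the light pool the 2 called higher became 5 with library totals, 4 without sorafenib light libraries 1 and 2, and 3 with TMM within each fraction, the DESeq2 test, a minimum of 10 counts in 6 libraries or only the compared groups, and 2 to 5 with one left out. The 5 negative interactions became 0 without a filter, and 1 to 6 with one left out. On polysomes against the light pool, the 0 called with sorafenib became 6 with library totals, 5 without a filter and 0 to 3 with one left out; the 7 called with vehicle stayed at 5 to 7. Library totals moved the median of all genes to 0.31 in the light pool and 0.82 between vehicle pools. The replicate block, and the block by culture, changed no call: 3 lower on polysomes, 2 higher in the light pool and, in both, 5 interactions. Some uncalled values turned sign. H3F3A between sorafenib pools gave -0.00441 with DESeq2 size factors, -0.041 with the compared groups, -0.38 without sorafenib light libraries 1 and 2, -0.11 thinned, and -0.282 to 0.85 with one left out. Without a filter, the interaction of H2AFY was 0.025; with one left out it ran from -0.71 to 0.019. H2AFY thinned was -0.27 on polysomes, where leaving one out gave -0.11 to 0.69, and -0.26 between sorafenib pools. With one left out, H3F3A ran from -0.37 to 0.61 in the light pool and from -1.08 to 0.0098 for the interaction, and the light H2AFZ to H2AFV ratio difference from -0.16 to 0.11. The causes were not tested. Depth limits the sorafenib light group, whose library 2 held 9 counts of H3F3A.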

Other observations

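The genes most like each of 3 members in log2 CPM over the 12 libraries were sought among 9389 genes whose log2 CPM averaged 3 or more. For H2AFZ these were RER1 at r = 0.988, DCUN1D5 at 0.985 and TIMM23 at 0.976. For H3F3A they were NDUFA12 at 0.960, TDP2 at 0.959 and PIGY at 0.948. For H3F3B they were ETFA at 0.980, RAB10 at 0.972 and TWISTNB at 0.971. The libraries share fraction, treatment and depth, so these values describe a shared pattern over 4 groups.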
